A study of Mus musculus with 6 samples.

Results

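Interferon-stimulated genes and the genes of antigen presentation were examined as a list of 40 members, chosen for their known place in the interferon response. Of these, 38 were measured on the array, out of 18193 genes in all. Ifi44 had no probe set named for it, and Isg15 was read only by a probe set shared with Gm9706, so neither has a value. The cells were MC3T3-E1 subclone 4, a single clone of a mouse calvarial pre-osteoblastic line. Control cultures were left untreated, and AA cultures were given ascorbic acid (AA), the cofactor of collagen hydroxylation, for 5 days, at a labelled dose of 50 µg that the study's methods state per ml. Both groups were grown in α-MEM with serum in 6-well plates, and the labels name no added interferon and no gene deletion. Each group had 3 arrays, and nothing settles whether these were separate wells or separate experiments. The spread behind the p-values may therefore be technical. In the main fit it is the spread left after replicate number is taken out as a block, moderated by the spread of all probe sets.

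Interferons are secreted cytokines that bind paired receptor chains on the cell surface. Type I interferons act through Ifnar1 and Ifnar2 and the kinases Jak1 and Tyk2, and their signal reaches a complex with Stat2 and Irf9 that binds the interferon-stimulated response element (ISRE). Interferon gamma acts through Ifngr1 and Ifngr2 and the kinases Jak1 and Jak2, and its target genes carry the gamma-activated site (GAS). The induced genes encode RNA sensors, antiviral effectors, GTPases that attack intracellular pathogens, and the proteasome subunits and transporters that prepare peptides for class I molecules. Many cells, osteoblasts among them, keep a basal level of several of these genes without added interferon.

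The promoter windows below are shown because the ISRE letters mark many of these genes. The motif searched was GAAANNGAAA on both strands, in windows from 250 bases before to 50 bases after a start listed by RefSeq for GRCm38.p6. Some genes had several windows and were counted once. It was found in 15 of the 32 members that had a window (46.9%) and in 3.99% of the 27025 genes with one. The GAS letters TTCNNNGAA were found in 10 of the 32 members (31.2%) and in 9.55% of all genes. Positions count from the listed start of the window, which was the RefSeq gene start for 7 of the 8 windows printed. Capitals mark the ISRE letters on either strand. The first 4 windows come from members whose signal fell in AA, Igtp and Ifit1 from members that did not pass, and the last 2 from called members in which the letters were not found.
Gbp2, chr3:142620563-142620662, plus strand: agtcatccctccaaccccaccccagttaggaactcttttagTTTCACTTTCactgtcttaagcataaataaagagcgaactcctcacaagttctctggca
Irgm1, chr11:48871421-48871520, minus strand: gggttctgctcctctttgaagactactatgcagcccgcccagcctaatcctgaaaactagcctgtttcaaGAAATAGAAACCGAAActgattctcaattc
Ddx58, chr4:40239806-40239835, minus strand: gccctgaggcagTTTCGATTTCctatggcc
Eif2ak2, chr17:78882541-78882570, minus strand: aggcggagtccgccggGAAAACGAAAcaga
Igtp, chr11:58199456-58199555, plus strand: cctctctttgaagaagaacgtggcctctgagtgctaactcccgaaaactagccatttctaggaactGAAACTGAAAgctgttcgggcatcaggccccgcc
Ifit1, chr19:34640769-34640868, plus strand: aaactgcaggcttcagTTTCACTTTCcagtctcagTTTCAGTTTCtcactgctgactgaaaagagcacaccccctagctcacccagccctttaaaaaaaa
Xaf1, chr11:72301529-72301628, plus strand: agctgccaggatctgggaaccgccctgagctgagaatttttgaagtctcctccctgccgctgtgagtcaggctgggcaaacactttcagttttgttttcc
Tapbp, chr17:33919378-33919477, plus strand: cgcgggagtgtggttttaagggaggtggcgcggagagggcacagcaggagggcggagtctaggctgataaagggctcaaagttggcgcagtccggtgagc

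In the Gbp2 window the match began at -59, in Igtp at -34, and in Irgm1 a pair of overlapping matches began at -30 and -24. In Ifit1, the classical antiviral effector, separate matches began at -104 and -85. The matches of Ddx58 and Eif2ak2 began just after the listed start, at positions 3 and 19. By the array result, the letters were found in 4 of 5 members that fell, in 0 of 1 that rose, and in 10 of 24 that did not pass and had a window. A match is a run of letters only, and no binding was measured in these cultures.

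In AA cultures 5 members fell, 1 rose and 32 did not pass the test. The members that fell were the GTPases Gbp2 and Irgm1, the RNA-binding sensors Ddx58 and Eif2ak2, and the class I loading factor Tapbp. The member that rose was Xaf1, an interferon-inducible regulator of cell death. Calls are limma's adjusted p under 0.05 over all probe sets, with each gene read by its brightest probe set. The 5 members that fell are 13.2% of those measured, beside 3.85% of all genes called lower, and the single rise is 2.63%, beside 4.07% of all genes called higher. Counting any probe set of a gene gave the same 1 rise and 5 falls, beside 4.75% and 4.59% of all genes. The median log2 fold change of AA over control was -0.28 over the 38 members and -0.02 over all genes. A lower fitted mean in AA was found for 29 members, 76.3%, beside 52.4% of all genes. Because the members were selected with earlier results of these data known, these counts are a description of the list and not a test of it.

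These calls depended on which arrays entered the fit. With no replicate block 4 members fell (Ddx58, Gbp2, Irgm1 and Tapbp) and 0 rose, beside 3.67% and 3.63% of all genes. Leaving out the pair of replicate 1, 2 or 3 gave 3, 0 and 4 members lower and 1, 1 and 2 higher. Without replicate 2 Xaf1 was the single member called. The number of all probe sets called lower also moved, from 1124 to 894, 410 and 994. Without replicate 2, 0 members and 410 of all probe sets were still called lower, so calls were lost in both. Whether the loss was particular to the members was not tested.

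**Figure D1:**
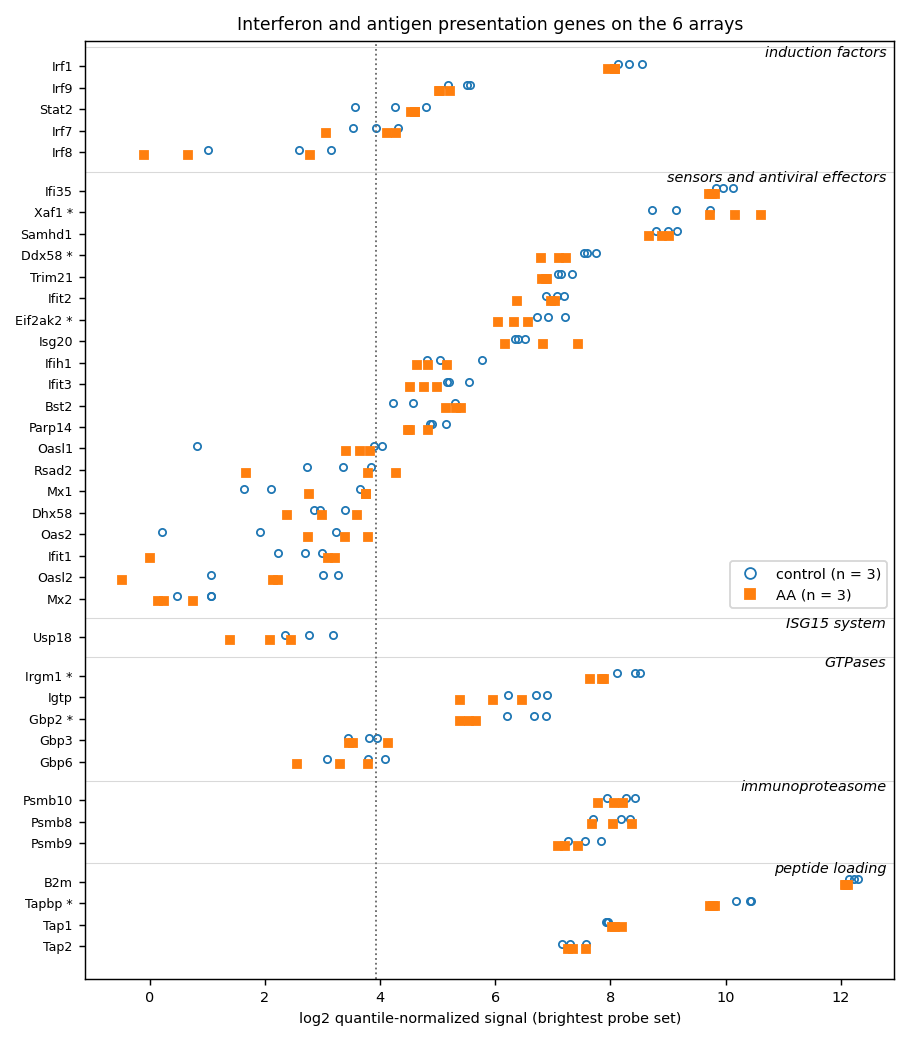
Log2 quantile-normalized signal of the brightest probe set of each of the 38 measured genes on 3 control arrays (circles) and 3 AA arrays (squares), grouped by role, with a dotted line at the median of all probe sets (3.93) and an asterisk at each called gene. The called genes lie to the right of the line, and the dim genes to its left have widely scattered arrays.

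The members covered a wide range of signal. By mean deposited signal, 25 of the 38 lay above the median of all probe sets, which was 16.0, and 13 lay below it. Read by the brightest probe set in the same way, 10837 of all 18193 genes lay above it. Signals of different probe sets do not rank transcripts, since each probe set has its own response. The table holds no detection calls, so dim members have signals but no call of presence. None of the 13 dim members passed in limma, and 0 of them had an unadjusted p under 0.05. They include Ifit1, Rsad2, Mx1, Mx2, Oas2, Oasl1, Oasl2, Usp18 and Irf8, several of which rank among the genes that respond most to added interferon.

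The deposited signals of the groups did not overlap for 10 members. Tap1 was higher on all AA arrays, 1 member of 38 beside 12.6% of all genes. Irf1, Ddx58, Eif2ak2, Ifit3, Ifi35, Trim21, Gbp2, Irgm1 and Tapbp were lower on all AA arrays, 23.7% of the members beside 15.3% of all genes. In the quantile-normalized values, with arrays paired by replicate number, 16 members (42.1%) were lower in AA in all 3 pairs, beside 23.8% of all genes. Xaf1 and Tap1 were higher in all 3 pairs, 5.26% of the members beside 20.3% of all genes. On the same scale 25 of the 38 members were lower in pair 1, 31 in pair 2 and 25 in pair 3, while the shares of all genes that were lower were 50.5%, 51.0% and 53.7%.

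**Figure D2:**
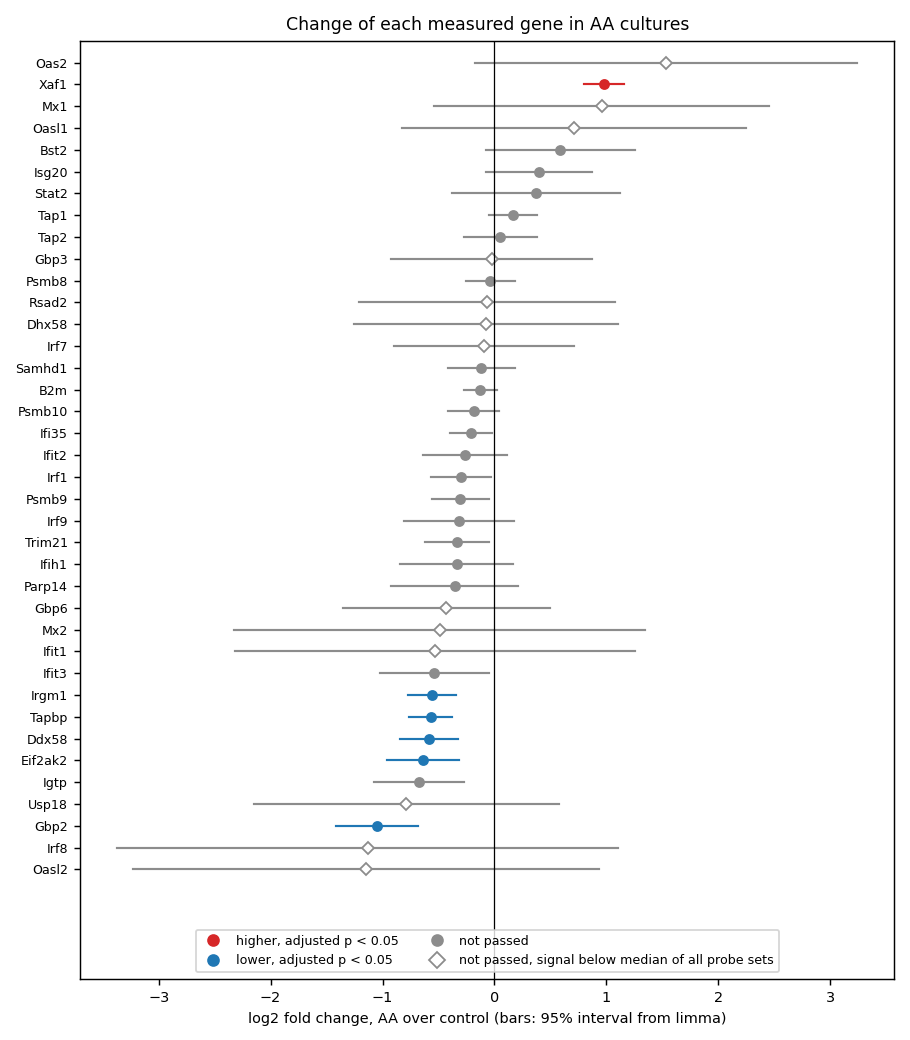
Log2 fold change of AA over control for the 38 measured genes, with limma's 95% intervals. Filled blue points are the 5 genes called lower, the red point is Xaf1, grey points did not pass, and open diamonds are genes below the median signal, whose intervals are the widest.

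Among the interferon-inducible GTPases, large proteins that gather on the membranes around intracellular pathogens, all 5 measured members had a lower fitted mean in AA, and 2 of them fell. Their median log2 fold change was -0.56. Gbp2, a guanylate-binding protein, gave signals of 72.9, 105 and 116 on control arrays and 41.0, 47.1 and 50.9 on AA arrays. Every AA array lay below every control array. The mean went from 98.2 ± 22.6 (SD, n = 3) to 46.3 ± 4.97 (SD, n = 3). The log2 fold change was -1.05, with an SE of 0.16 and an adjusted p of 0.00895. A further Gbp2 probe set gave -1.16 with an adjusted p of 0.0126, though probe sets of 1 gene are not independent samples.

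Irgm1, a regulatory GTPase that shields host membranes from the effector GTPases of its family, gave 280, 348 and 373 on control arrays and 197, 227 and 239 on AA arrays. The groups lay fully apart, and the drop was of similar size in the 3 pairs, at -0.47, -0.57 and -0.63. Its log2 fold change was -0.56 with an SE of 0.09 and an adjusted p of 0.0139. Igtp, a related regulatory GTPase, read 74.4, 108 and 119 on control arrays and 41.4, 87.9 and 62.8 on AA arrays. Here AA replicate 2 lay above control replicate 1, so the groups overlapped. Igtp had a log2 fold change of -0.67 with an SE of 0.18 and an adjusted p of 0.0716, and it passed with the signals as deposited (adjusted p of 0.0479) or centred on each array's median (0.0387). With no replicate block its adjusted p was 0.238, and with the pair of replicate 1, 2 or 3 left out 0.152, 0.0857 and 0.195. The guanylate-binding proteins Gbp3 and Gbp6 were both below the median signal and gave -0.03 and -0.43, with adjusted p of 0.987 and 0.658.

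**Figure D3:**
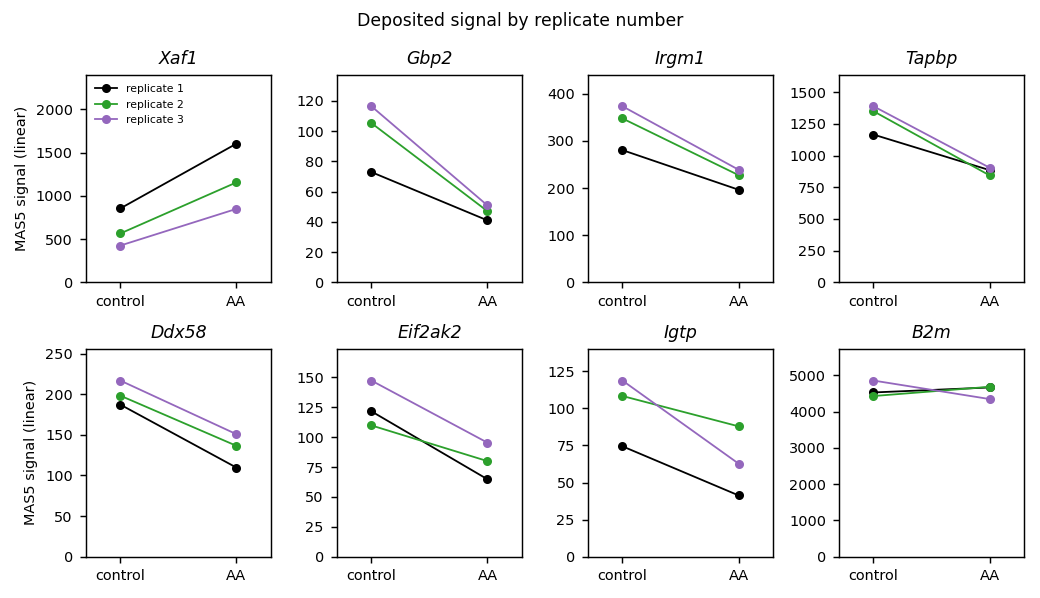
Deposited MAS5 signal, on linear axes that start at 0, of 8 genes in control and AA cultures, with lines joining arrays of the same replicate number. Xaf1 rises along all 3 lines from 3 different starting levels, Gbp2, Irgm1, Tapbp, Ddx58, Eif2ak2 and Igtp fall along all 3, and B2m stays between 4347 and 4857.

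The largest class, the RNA sensors and antiviral effectors, had 20 measured members, of which 1 rose, 2 fell and 17 did not pass. Their median log2 fold change was -0.24. Xaf1, which binds and opposes an inhibitor of caspases, read 855, 565 and 426 on control arrays and 1602, 1155 and 849 on AA arrays. The highest control array, replicate 1, lay just above the lowest AA array, replicate 3, so the groups overlapped although every pair rose. The pairs gave log2 differences of 0.89, 1.04 and 1.01, and the mean went from 615 ± 219 (SD, n = 3) to 1202 ± 378 (SD, n = 3). The fitted fold was 1.97, with a log2 fold change of 0.98, an SE of 0.08 and an adjusted p of 0.000602. That call rests on the replicate block, since without it the adjusted p was 0.0704. The other Xaf1 probe set gave 1.03 with an adjusted p of 0.0547.

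Ddx58, the cytoplasmic sensor RIG-I that recognises viral RNA ends, read 187, 198 and 217 on control arrays and 110, 137 and 151 on AA arrays. The groups were apart by a wide gap. The log2 fold change was -0.58 with an SE of 0.11 and an adjusted p of 0.0236. Its other probe sets were dimmer and gave -0.23 and -1.36, with adjusted p of 0.628 and 0.401. With a pseudocount of 50 the Ddx58 change was -0.44 with an adjusted p of 0.0506. With no replicate block the adjusted p was 0.0412, and with the probe sets averaged 0.167. Leaving out the pair of replicate 1, 2 or 3 gave 0.0741, 0.107 and 0.0308.

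Eif2ak2, the kinase PKR that halts translation when it binds double-stranded RNA, read 122, 110 and 147 on control arrays and 64.8, 80.0 and 95.4 on AA arrays. Again no array of one group reached the other. The log2 fold change was -0.64 with an SE of 0.14 and an adjusted p of 0.0411. The 2 dimmer Eif2ak2 probe sets gave changes of opposite sign, 0.58 and 0.35, with adjusted p of 0.416 and 0.563. The probe sets of this gene therefore did not give 1 direction, and with no replicate block the brightest had an adjusted p of 0.0794. Its call was lost when any one of the 3 pairs was left out, with adjusted p of 0.0779 to 0.128.

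**Figure D4:**
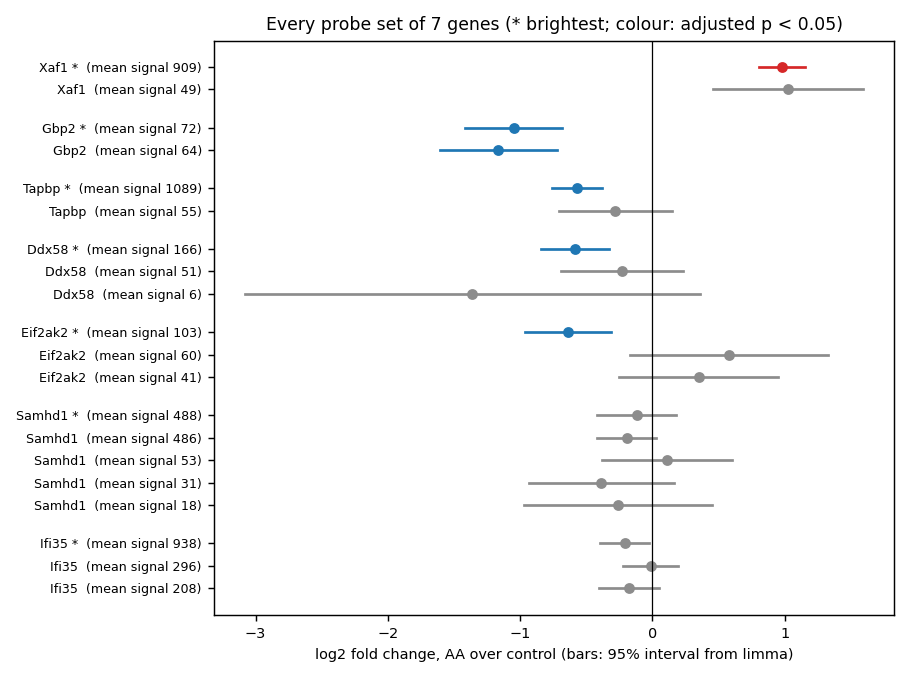
Log2 fold change of AA over control with limma's 95% interval for every probe set of 7 genes, the brightest marked by an asterisk and the mean deposited signal in brackets. Both Gbp2 probe sets lie below 0 and both Xaf1 probe sets above it, while the dimmer Eif2ak2 probe sets lie on the other side of 0 from the brightest.

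The other RNA sensors of the Ddx58 family, Ifih1 (MDA5) and Dhx58 (LGP2), gave log2 fold changes of -0.34 and -0.07, with adjusted p of 0.492 and 0.970. Of the Ifit genes, which encode tetratricopeptide proteins that bind viral RNA, Ifit3 read 34.8, 49.4 and 35.5 on control arrays and 23.1, 32.3 and 27.4 on AA arrays. These groups did not overlap, but the adjusted p was 0.228 for a log2 fold change of -0.54. Ifit2, its neighbour on chromosome 19 with 0 coding genes between them, gave -0.26 with an adjusted p of 0.469. Ifit1 read 4.35, 7.12 and 7.34 on control arrays and 9.56, 1.04 and 8.35 on AA arrays. The single low AA array, replicate 2, set the sign of its fitted change, which was -0.53 with an SE of 0.78 and turned to 0.55 without that replicate's pair.

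The other bright effectors did not pass. Ifi35, a leucine zipper protein induced by interferon, read 913, 1102 and 1004 on control arrays and 836, 873 and 902 on AA arrays. The groups were apart, with a log2 fold change of -0.21 at an adjusted p of 0.219. Samhd1, which depletes the deoxynucleotide pool, read 446, 517 and 577 against 510, 466 and 410. Those ranges overlapped, and the log2 fold change was -0.12 with an adjusted p of 0.721. Trim21, an antibody receptor of the cytosol, read 139, 145 and 162 on control arrays and 116, 118 and 112 on AA arrays. Its groups did not overlap, with a log2 fold change of -0.33 at an adjusted p of 0.197.

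A few effectors had higher fitted means in AA without passing. Isg20, an exonuclease that degrades RNA, read 91.6, 83.7 and 82.2 on control arrays and 169, 113 and 73.1 on AA arrays. AA replicate 3 was the lowest of the 6 arrays and AA replicate 1 the highest. The log2 fold change was 0.40 with an adjusted p of 0.368, and 0.71 with an adjusted p of 0.036 without the pair of replicate 3. Bst2, the tetherin that holds budding virus at the cell surface, read 38.5, 25.7 and 17.5 against 34.7, 40.3 and 42.4. The control arrays spread more than the AA arrays, and the log2 fold change was 0.59 with an adjusted p of 0.342. The dim 2'-5' oligoadenylate synthetase Oas2 had the highest fitted change of all members, 1.53, with a 95% interval from -0.18 to 3.24 and an adjusted p of 0.335. Its relative Oasl2 had the lowest, -1.15, with an adjusted p of 0.585, and Mx2, the dimmest member, had signals of 1.15 to 1.98 on all 6 arrays.

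Usp18, which removes ISG15 from proteins and dampens receptor signaling, was the measured member of the ISG15 system. It read 6.28, 5.58 and 8.34 on control arrays and 2.73, 5.72 and 4.17 on AA arrays. AA replicate 2 lay above control replicate 2, and the log2 fold change of -0.79 had an SE of 0.59 and an adjusted p of 0.565.

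The induction factors are the transcription factors that carry the signal to the nucleus, and 5 were measured. None of them passed in limma, and their median log2 fold change was -0.30. At an unadjusted p under 0.05, 1 (Irf1) was lower, beside 2344 of all 18193 genes. Irf1, which binds ISRE-like letters and is itself induced by interferon gamma, read 284, 324 and 381 on control arrays and 264, 266 and 251 on AA arrays. Every AA array was below every control array, most of all in the pair of replicate 3. Its log2 fold change was -0.30 with an adjusted p of 0.228. Irf9 and Stat2, partners in the ISRE-binding complex, gave -0.32 and 0.38, with adjusted p of 0.508 and 0.630. Irf7, which drives interferon genes, gave -0.09 with an adjusted p of 0.936. Irf8, a factor of blood cells, read 8.17, 6.61 and 1.81 on control arrays and 1.67, 0.976 and 6.74 on AA arrays, and its pair differences had both signs.

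The immunoproteasome subunits replace the standard catalytic subunits of the proteasome and change the peptides it makes. None of the 3 passed in limma, and 1 (Psmb9) was lower at an unadjusted p under 0.05, beside 2344 of all 18193 genes. Psmb8 read 207, 293 and 331 on control arrays and 201, 261 and 331 on AA arrays. The groups overlapped almost fully, with a log2 fold change of -0.04 and a 95% interval from -0.25 to 0.18. Psmb9 read 154, 192 and 231 against 133, 146 and 174, with a log2 fold change of -0.31 at an adjusted p of 0.185. Psmb10 read 246, 314 and 350 against 215, 293 and 270, with a change of -0.19 and an adjusted p of 0.390. Each of the 3 genes was lowest at replicate 1 in both groups, as were 26.3% of the members and 15.1% of all genes.

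Of the 4 genes of peptide loading, which carry peptides into the endoplasmic reticulum and fit them to class I molecules, 1 fell. Tapbp, the tapasin that bridges class I molecules to the transporter, read 1165, 1349 and 1388 on control arrays and 885, 843 and 904 on AA arrays. The AA arrays lay close together and all well below the control arrays. The mean went from 1301 ± 119 (SD, n = 3) to 878 ± 31.0 (SD, n = 3). This was a change of -0.57 on the log2 scale, with an SE of 0.08 and an adjusted p of 0.0075. A dimmer Tapbp probe set gave -0.28 with an adjusted p of 0.5. Tapbp was also called with no replicate block and with any single array left out of that fit, but not after the pair of replicate 2 was left out.

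The transporter subunits lay beside the immunoproteasome genes on chromosome 17, with 0 coding genes between Psmb9 and Tap1, Tap1 and Psmb8, or Psmb8 and Tap2, and 17 between Tapbp and Psmb9. Tap1 read 243, 251 and 251 on control arrays and 256, 267 and 295 on AA arrays. The groups were apart but close, with a log2 fold change of 0.17 at an adjusted p of 0.418. Tap2 read 191, 160 and 143 against 160, 151 and 192, and the groups overlapped, with a change of 0.05 and an adjusted p of 0.899. B2m, the light chain shared by all class I molecules, read 4529, 4430 and 4857 on control arrays and 4666, 4685 and 4347 on AA arrays. B2m had overlapping groups and a log2 fold change of -0.13, with a 95% interval from -0.27 to 0.02, or -0.012 with the signals as deposited. Its other probe set gave -0.10 with an adjusted p of 0.502. B2m lies on chromosome 2, apart from this cluster. Of Tapbp, Psmb9, Tap1, Psmb8 and Tap2, Tapbp was thus the single gene that passed by its brightest probe set.

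A list of 104 further genes of the pathway, 88 of them measured, places these members in the route from receptor to effector. Of the 88, 4 rose (4.55%), 3 fell (3.41%) and 81 did not pass. These shares were close to the 4.07% and 3.85% of all genes called higher and lower, so the counts say nothing particular about the list, and the genes below are given as single values. The median log2 fold change was -0.10. Leaving out the pair of replicate 1, 2 or 3 gave 4, 2 and 2 genes higher and 3, 0 and 3 lower. In the same fits 1071, 556 and 1169 of all probe sets were higher and 894, 410 and 994 lower. The list was also drawn up with earlier results of these data known.

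Among interferon genes and receptors, 1 of 11 rose. Ifngr2, the signaling chain of the interferon gamma receptor, read 175, 145 and 116 on control arrays and 272, 211 and 224 on AA arrays. Every AA array was higher, with a log2 fold change of 0.73, an SE of 0.11 and an adjusted p of 0.00965. A dimmer Ifngr2 probe set gave 0.11 with an adjusted p of 0.830. The ligand-binding chain Ifngr1 gave 0.29, and the type I chains Ifnar1 and Ifnar2 gave -0.15 and 0.21, with adjusted p of 0.230, 0.556 and 0.211. Ifnb1, the type I interferon that most cells can make, had signals of 5.59 to 10.4, a log2 fold change of -0.57 at an adjusted p of 0.581.

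Among kinases, STATs and IRFs beside the members, 1 of 9 rose. Jak2, a kinase of the interferon gamma receptor and of many cytokine and hormone receptors, read 454, 421 and 355 on control arrays and 865, 584 and 521 on AA arrays. No array of one group reached the other, with a log2 fold change of 0.68, an SE of 0.10 and an adjusted p of 0.00869. A second probe set gave 0.82 with an adjusted p of 0.00791, and with no replicate block the brightest had 0.0614. Jak1 and Tyk2, the kinases of the type I receptor, gave -0.22 and 0.25, with adjusted p of 0.181 and 0.427.

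Among the inhibitors, 1 of 8 rose. Socs1, which blocks JAK kinases as a feedback product of the pathway, read 31.7, 30.1 and 21.1 on control arrays and 63.0, 44.6 and 52.4 on AA arrays. The AA arrays were all higher, with a log2 fold change of 0.95, an SE of 0.21 and an adjusted p of 0.0410, or 0.0846 with a pseudocount of 50. The Socs1 call was lost when any one of the 3 pairs was left out, with adjusted p of 0.103 to 0.109. Among 13 nucleic acid sensing genes 1 fell, Tlr9, an endosomal receptor for DNA, which read 12.4, 18.4 and 28.3 against 2.43, 2.34 and 2.80. Tlr9 was apart between groups, and its mean signal of 11.1 was dimmer than the array median, with no detection call to show it above background. Its adjusted p was 0.0144, and the size of the drop is not resolved: the log2 fold change was -2.94, and -0.41 with a pseudocount of 50.

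**Figure D5:**
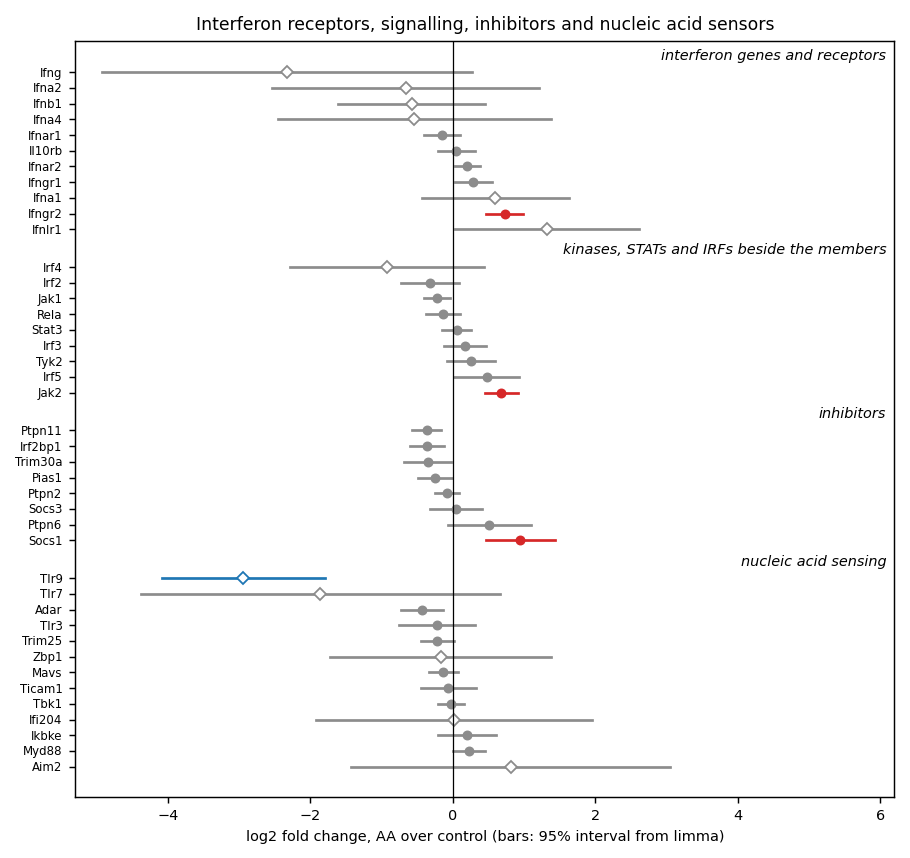
Log2 fold change of AA over control with limma's 95% interval for receptors, kinases and transcription factors, inhibitors and sensors of the pathway, with open diamonds for genes below the median signal. Ifngr2, Jak2 and Socs1 (red) were called higher and Tlr9 (blue) lower.

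Of 27 other interferon-induced effectors, 1 rose and 2 fell. Ifi30, a lysosomal thiol reductase that unfolds antigens, read 737, 752 and 704 on control arrays and 916, 997 and 1068 on AA arrays. Its groups were apart, with a log2 fold change of 0.45 at an adjusted p of 0.0229, which became 0.112 after centring each array on its median. Lgals3bp, a secreted glycoprotein that binds galectin, read 261, 235 and 239 against 150, 170 and 160, and fell by 0.58 on the log2 scale with an adjusted p of 0.0217. Ifitm3, a membrane protein that blocks virus entry, read 4250, 5053 and 5150 against 3735, 4359 and 4103. Ifitm3 groups overlapped, and the log2 fold change of -0.34 had an adjusted p of 0.0252, 0.116 with no replicate block and 0.181 with the signals as deposited.

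Of 20 antigen presentation genes beside the members, 0 passed in limma by their brightest probe set. At an unadjusted p under 0.05, 2 were higher and 1 lower, beside 1943 and 2344 of all 18193 genes. The class I heavy chains H2-K1 and H2-D1 are nearly identical in sequence, so their probe sets may share transcripts and are uncertain. The brightest H2-K1 probe set read 1162, 1310 and 1504 on control arrays and 1309, 1515 and 1785 on AA arrays. The groups overlapped, with a log2 fold change of 0.20 at an adjusted p of 0.186. Other H2-K1 probe sets gave 0.78, 0.91 and 0.57, with adjusted p of 0.00629, 0.0172 and 0.509. For H2-D1 the brightest of 9 gave 0.13 with an adjusted p of 0.414, and 1 of the others rose by 0.91 with an adjusted p of 0.0161.

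The arrays also differed in RNA quality measures and marker genes. Control replicate 3 had the highest 3' to 5' ratio of the Gapdh control probe sets, 0.920 against 0.791 to 0.809 on the others, and was the highest control array for 19 of 38 members, where 34.6% of all genes were highest on it. AA replicate 3, with a ratio of 0.799, was likewise the highest AA array for 18 members, beside 33.2% of all genes. Control replicate 1 was the lowest control array for 20 members, a count with no share of all genes beside it. Replicate 1 was lowest in both groups for 10 members, 26.3%, beside 15.1% of all genes. Of the 8 measured osteoblast markers, all lay above the median signal and 3 (Alpl, Ibsp and Pth1r) rose in AA, and the summed signal ran from 24320 to 29070 in control and from 29340 to 37260 in AA. Of 12 measured macrophage and leukocyte markers, whose cells carry many of the members, 9 were below the median, 1 (Csf1r) was called, and the summed signal ran from 442 to 552 in control and from 508 to 584 in AA. Ptprc, which defines leukocytes, had signals of 0.3 to 4.5, and Lyz2, a lysozyme of macrophages, had a log2 fold change of -0.18 with an adjusted p of 0.496. Tyrobp, Adgre1, Itgam, Itgax, Fcgr1, Cd3e and Cd68 had lower fitted means in AA. Ptprc, Cd14 and Cd79a had higher fitted means, and none of these genes passed. All of them except Cd14 were below the median signal. Cd14 read 53.9, 70.7 and 62.1 on control arrays and 92.2, 73.7 and 83.9 on AA arrays. Its groups were apart, with a log2 fold change of 0.42 at an adjusted p of 0.238. Csf1r, the receptor of the macrophage growth factor, rose from 23.9, 24.7 and 25.0 to 104, 74.6 and 83.6. Its log2 fold change was 1.81 with an adjusted p of 0.00168. The dimmer Csf1r probe sets, also above the median signal, gave 1.54 and 0.21, with adjusted p of 0.0337 and 0.72. All 7 endothelial markers and both measured adipocyte markers were below the median, and 1 of them, Vwf, was called lower (signals of 4.40, 7.18 and 4.46 against 0.393, 0.749 and 0.355, adjusted p of 0.0441). The part of these differences in the members' values was not tested, and in bulk RNA fewer cells with a transcript and less of it per cell cannot be told apart.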

How the data were processed

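Affymetrix Mouse Genome 430 2.0 arrays read RNA of 3 control and 3 AA cultures. Linear intensity values were deposited, which per the labels come from MAS5 (no version), scaled on each array to a trimmed mean of 150. The study's methods describe GC-RMA and quantile normalization, steps that the deposited values do not carry. Here 64 control probe sets were left out and log2 signals of 45037 were quantile-normalized. The model in limma 3.58.1 (R 4.3.3) held condition and, following the paired tests of the methods, replicate number as a block, with a trend in the prior variance (2 residual and 6.18 prior degrees of freedom). Benjamini-Hochberg adjustment ran over all 45037. In GEO's platform annotation 34945 probe sets have 1 gene, 932 several and 9160 none. Symbols were checked by Entrez identifier in RefSeq's GRCm38.p6 table (0 changed). Each gene was read by its brightest probe set named for it alone. The files name no build, and promoter windows are RefSeq's. The fit was tested on simulated arrays that were given a shared replicate effect, which does not test the pairing of these arrays. Members, gene lists and the naming rule were chosen with earlier results of these data known. The rule names members and pathway genes that passed, the 5 largest changes each way among brighter members and the 5 brightest and dimmest, and members outside it complete a class. Alternatives were no block, other scalings, a pseudocount of 50, signal filters, no trend, the methods' paired t-test and thresholds, the mean of probe sets and each replicate left out.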

Additional observations from a re-analysis of the deposited data

How the results depend on the processing

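The main counts were 1 member higher and 5 lower, 4 pathway genes higher and 3 lower, and 1219 probe sets higher and 1124 lower, and the members' median log2 fold change was -0.28. The replicate numbers were not shown to pair the arrays: deviations of same-numbered arrays correlated over all probe sets at 0.017, 0.004 and 0.010, over those above the median signal at 0.183, 0.027 and 0.092, and over the members at -0.191, -0.055 and -0.124. Median centring turned the balance of all probe sets to 842 higher and 1291 lower, with a median shift of -0.047. With no replicate block 0 members were higher and 4 lower. A pseudocount of 50 gave 3 members lower, 788 probe sets higher and 655 lower, and a median of -0.08. The upper quartile of signal, averaging all probe sets of a gene and the methods' thresholds each gave 3 members lower, but not the same 3. They were Ddx58, Irgm1 and Tapbp in the upper quartile, and Gbp2, Irgm1 and Tapbp by averaging. At the methods' thresholds they were Eif2ak2, Gbp2 and Igtp. Without the trend in limma's prior variance, and in the methods' paired t-test after Benjamini-Hochberg, 0 members, 0 pathway genes and 0 probe sets passed in either direction. At an unadjusted p under 0.05 the former gave 2587 probe sets higher and 2616 lower and the latter 2612 and 2827, and both gave 1 member higher and 7 lower. Leaving out 1 replicate pair or 1 array (without the block) gave 0 to 2 members higher and 0 to 4 lower, 0 to 4 pathway genes higher and 0 to 4 lower, 380 to 1169 probe sets higher and 339 to 994 lower. Xaf1 was the single member called without replicate 2, and Tapbp without control replicate 2 or 3 or AA replicate 1 or 2. Signs turned for Eif2ak2 (0.10) and Ifnar2 (-0.017) when probe sets were averaged, and with replicates left out for Ifit1 (-1.30 to 0.55), Oasl2 (-2.27 to 0.018) and Samhd1 (-0.29 to 0.065). Of the values of named genes, 497 kept direction and side of the threshold, 115 lost the call, 6 gained it and 6 changed sign. A gene called in neither fit counts as kept, and most named genes were not called in the main fit. Only the called genes could lose a call, so 115 is not to be read against 497. The cause of these changes was not tested. With 3 arrays a group and no detection calls, changes of dim genes cannot be resolved.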

Other observations

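The order of the 3 replicate numbers was the same in both groups for 9 of the 38 members: Ifih1, Ddx58, Ifit3, Isg20, Xaf1, Gbp2, Irgm1, Psmb8 and Psmb9. That is 23.7% of the members, beside 19.6% of all genes. For 5 of them, Ddx58, Gbp2, Irgm1, Psmb8 and Psmb9, replicate 1 was lowest and replicate 3 highest in both groups, 13.2% of the members beside 5.33% of all genes. Xaf1 ran the other way, with replicate 1 highest and replicate 3 lowest in both.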
